A study of Mus musculus with 6 samples.

Results

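The insulin-like growth factor (IGF) axis was followed here through 10 genes, chosen by name: the ligands Igf1 and Igf2, the receptors Igf1r and Igf2r, and the binding proteins Igfals and Igfbp1 to Igfbp5. All 10 were among the 25576 genes listed in the files. Spinal cords of Taiwanese spinal muscular atrophy (SMA) mice and of controls were sequenced in bulk at postnatal day 4 from ribosomal-depleted total RNA, in 3 libraries a group, to describe gene expression across the cord. SMA mice were mSmn-/-, hSMN22tg/0 and control mice mSmn+/-, hSMN22tg/0, all on the FVB strain, so that both groups carried the human SMN2 transgene and the controls kept only 1 working allele of the mouse gene. All 6 libraries are labelled spinal cord and 0 are labelled liver, so the axis can be described only in libraries labelled as cord. No label says whether the 3 libraries of a group came from separate animals, and the methods can be read as repeat libraries of a single sample a group. The p-values therefore measure only the spread between these libraries, which may be technical.

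IGF1 and IGF2 are secreted growth factors that signal through the receptor tyrosine kinase IGF1R, while IGF2R binds IGF2 and carries it to lysosomes. In blood most IGF is held by binding proteins, chiefly in a complex of IGFBP3 or IGFBP5 with the acid-labile subunit, the product of Igfals, which is made in liver under the control of growth hormone. Around birth the liver is also a main source of IGF2, IGFBP1 and IGFBP2, and in the brain and cord Igf2 is known from the meninges and vessels more than from neurons.

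Values were FPKM, fragments scaled to transcript length and library size, a level per length that allows genes to be compared. The files hold 0 rows with a value of 0, so a value of 0 here stands for a gene absent from that library's rows. Where 3 values follow a group's name or stand before it, they are those of replicates 1, 2 and 3 in that order. Summed over all genes, control replicates 1 to 3 held 360694, 413653 and 346181 FPKM and SMA replicates 1 to 3 held 366516, 364308 and 368424 FPKM. Read counts were not used here, and the steps between low FPKM values put the depth of the libraries between 1.00 and 1.16 times that of SMA replicate 1.

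Smn1, the targeted gene, lies on chromosome 13 (100124852 to 100137690, plus strand, GRCm38). It was listed at 10.4, 8.64 and 11.9 FPKM across the controls and at 8.48, 9.30 and 11.1 FPKM across the SMA libraries. The groups overlapped (log2 fold change -0.09, adjusted p = 0.819 from limma). The null allele disrupts part of the gene, so a level over the whole gene does not check the labels, and libraries are named here by their label.

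Control replicate 2 stood apart from the rest. Its log2(FPKM + 1) values correlated with those of the other 5 libraries at 0.836 to 0.849 (Pearson's r across genes), while the other 5 correlated with each other at 0.983 to 0.992. All 40 hepatocyte markers of a list written for the comparison were highest in it. They summed to 108, 34847 and 74.8 FPKM across the controls and to 66.2, 138 and 79.6 FPKM across the SMA libraries, or 8.42% of all FPKM in control replicate 2 and 0.0181% to 0.0379% in the others. Alb, the gene of serum albumin and the most abundant of the list, was listed at 44.6, 15894 and 30.7 FPKM across the controls and at 24.6, 56.2 and 30.5 FPKM across the SMA libraries. Ahsg (4921 FPKM) and Afp (2929 FPKM), which encode fetuin-A and alpha-fetoprotein, came next in control replicate 2. No hepatocyte marker was at 0 in control replicate 2 or in all of the other 5 libraries, and 6 were absent from at least 1 of those 5.

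Markers of other cells also stood apart in that library. The 6 Kupffer cell markers summed to 0.265, 40.1 and 0.104 FPKM across the controls and to 0.234, 0.327 and 0.134 FPKM across the SMA libraries, led by Marco, Cd5l and Clec4f, and each of the 6 was absent from at least 1 library other than control replicate 2. The 6 liver sinusoidal endothelial markers summed to 1.43, 48.4 and 1.39 FPKM and to 1.73, 1.35 and 1.36 FPKM, led by Stab2, Fcgr2b and Clec4g, and 2 of the 6 were absent from at least 1 other library. Of 10 erythroid markers 9 were listed, and they summed to 1863, 18856 and 1180 FPKM across the controls and to 1115, 1719 and 1333 FPKM across the SMA libraries, led by the globin genes Hbb-bs, Hba-a1 and Hba-a2. The liver of a newborn mouse still makes red cells, as background. The 6 stellate cell markers summed to 97.5, 109 and 117 FPKM and to 106, 95.9 and 99.8 FPKM, a sum made mostly by Reln, which cord neurons also express, with Rgs5 and Ecm1 next, and 3 of the 6 were over 2-fold higher in control replicate 2. The 12 neuron markers went the other way, with sums of 1090, 586 and 1107 FPKM across the controls and 1067, 1157 and 1161 FPKM across the SMA libraries. Tubb3, Nefl and Snap25 were the most abundant of them. The label of control replicate 2 gives spinal cord only, and whether tissue of another organ entered that library was not tested, so its IGF values cannot be read as levels in the cord. These marker values are given beside the IGF genes below, and their part in each result was not tested.

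Among the 10 genes, 5 (Igf2, Igfals, Igfbp1, Igfbp2 and Igfbp4) were over 2-fold higher in control replicate 2 than the median of the other 5 libraries on the FPKM + 1 scale, and 0 were over 2-fold lower. Of the 17088 genes whose mean reached 0.5 FPKM, 8.3% were over 2-fold higher in that library and 0.562% over 2-fold lower. Igf1 lay just under that limit (log2 ratio 0.99) and passed it with median ratio scaling of the libraries (1.14). The genes were named with the profile of this library known, so the count describes the library and tests nothing. Because 1 library could decide a comparison of 3 against 3, the log2 fold changes of the 10 genes are given with and without it. Igfals was not tested without it. For other genes and for markers, some values are given for 1 fit only.

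**Figure D1:**
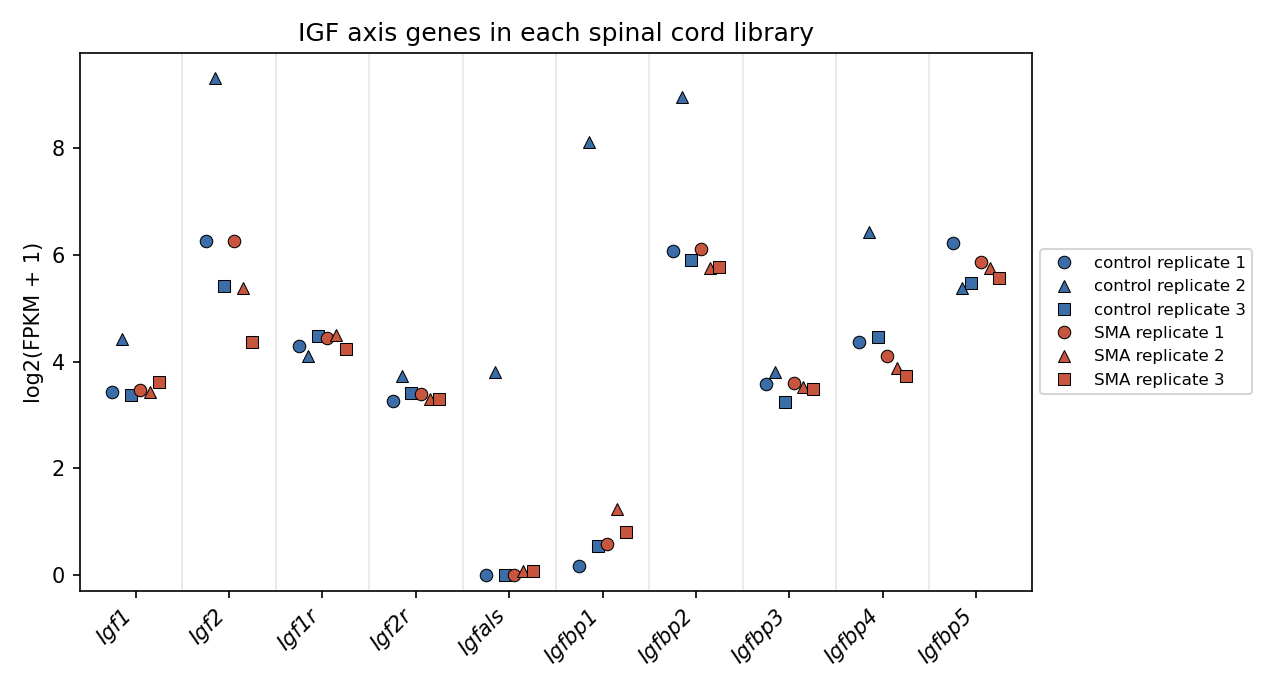
Level of each IGF axis gene as log2(FPKM + 1), with 1 point for each of the 6 libraries; blue points are control, red points SMA, and the marker shape gives the replicate number. Control replicate 2 (blue triangle) lies above the other 5 libraries for Igf2 (638 FPKM), Igfbp1 (277 FPKM), Igfbp2 (499 FPKM), Igfbp4 (84.9 FPKM), Igfals (12.9 FPKM), Igf1 (20.4 FPKM) and, by less, Igf2r and Igfbp3, and below them for Igf1r and Igfbp5.

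The sequences before the start sites of 3 of these genes are shown because Igfbp1, Igfals and Igfbp4 were the genes of the 10 with a match to any of the motifs searched, in lower case from 5′ to 3′, with the 250 bases that end at the base before the annotated start (RefSeq, GRCm38.p6). RefSeq gave 16 start sites for the 10 genes, and each of the 10 had at least 1. The windows shown lie at chr11:7197537-7197786 for Igfbp1, chr17:24877981-24878230 for Igfals and chr11:99040994-99041243 for Igfbp4, all on the plus strand. Capitals mark any of 4 motifs, each searched on both strands: the gamma-activated site TTCNNNGAA, bound by STAT5 downstream of growth hormone; GTTAATNAT, part of the site bound by the liver factor HNF1; CAAAACAA, the core of the insulin response sequence; and the TATA box TATAAA. The Igfals start shown is the one of 3 whose match lies nearest to it.
Igfbp1: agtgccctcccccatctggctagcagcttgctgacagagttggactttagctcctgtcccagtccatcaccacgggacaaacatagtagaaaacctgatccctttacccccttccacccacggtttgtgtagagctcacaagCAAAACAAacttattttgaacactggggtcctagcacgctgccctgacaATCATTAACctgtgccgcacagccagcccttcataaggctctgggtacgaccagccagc
Igfals: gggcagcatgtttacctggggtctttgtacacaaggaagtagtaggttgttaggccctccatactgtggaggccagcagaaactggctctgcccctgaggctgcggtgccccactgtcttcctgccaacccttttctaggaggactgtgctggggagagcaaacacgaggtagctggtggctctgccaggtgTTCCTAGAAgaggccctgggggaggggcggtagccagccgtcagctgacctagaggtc
Igfbp4: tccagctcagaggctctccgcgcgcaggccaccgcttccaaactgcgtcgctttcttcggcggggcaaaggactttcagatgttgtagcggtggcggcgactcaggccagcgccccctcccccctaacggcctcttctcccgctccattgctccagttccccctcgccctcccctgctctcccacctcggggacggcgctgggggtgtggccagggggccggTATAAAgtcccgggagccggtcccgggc
The Igfbp1 window held CAAAACAA at position -108 and the reverse complement of GTTAATNAT at position -59, counted from the start. CAAAACAA was in 2.21% and GTTAATNAT in 0.737% of the 32851 promoter windows of the same length. Igfals held TTCNNNGAA at position -58, a motif found in 7.02% of all windows, and another of its 3 windows held it at position -236. Igfbp4 held TATAAA at position -28, a motif in 12.4% of all windows. No match overlapped another in these 3 windows. The windows of the other 7 genes held 0 matches, also those of Igf2 and Igfbp2, which were further above the other libraries in control replicate 2 than Igfbp4 was. The 3 genes were thus picked by their match. A match describes the letters in the window and is not a binding site shown by these data.

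For the ligands, Igf1 (chromosome 10, 87858265 to 87937042, plus strand, GRCm38) was listed at 9.77, 20.4 and 9.37 FPKM across the controls and at 10.1, 9.81 and 11.3 FPKM across the SMA libraries. Control replicate 2 was 1.81 times the highest of the other 5, which spanned 9.37 to 11.3 FPKM. The mean was 13.2 ± 6.27 FPKM in control and 10.4 ± 0.791 FPKM in SMA (SD, n = 3 in each). Over all 6 libraries the log2 fold change was -0.23 (limma, SE 0.28, adjusted p = 0.747), with overlapping groups. Without control replicate 2 it was 0.11 (limma, SE 0.0933, adjusted p = 0.725), so the direction turned with that library. The 3 SMA values then lay above both control values, the nearest pair being 9.77 and 9.81 FPKM, and the exact two-sided permutation p was 0.2. Fold changes here and below are on the log2(FPKM + 1) scale, which understates the change of genes at low levels.

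Igf2 (chromosome 7, 142650766 to 142666816, minus strand) is the fetal growth factor expressed from the paternal allele. It was listed at 75.4, 638 and 41.9 FPKM across the controls and at 75.4, 40.4 and 19.6 FPKM across the SMA libraries. Control replicate 2 held 8.47 times the level of the next library, and among the other 5 the lowest, SMA replicate 3, lay 3.84-fold under the highest. The mean was 252 ± 335 FPKM in control and 45.1 ± 28.2 FPKM in SMA (SD, n = 3 in each), so that the spread of the control group was larger than its mean. The groups overlapped, also when control replicate 2 was left out. The log2 fold change was -1.67 (limma, SE 1.01, adjusted p = 0.683) over 6 libraries and -0.51 (limma, SE 0.49, adjusted p = 0.75) without that library. The exact two-sided permutation p was 0.2 and 0.4, where 0.1 is the smallest that 3 libraries against 3, or 3 against 2, allow.

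H19, the maternally expressed non-coding RNA of the same imprinted locus, ran beside Igf2, at 64.2, 1729 and 23.0 FPKM across the controls and at 64.7, 40.3 and 16.6 FPKM across the SMA libraries. In both genes control replicate 2 was the highest library and SMA replicate 3 the lowest. Among the 5 libraries without control replicate 2, the summed meningeal and perivascular fibroblast markers were also lowest in SMA replicate 3, as were 7 of the 10 markers, while Pdgfrb, Aldh1a2 and Crabp2, named after their values were seen, were lowest in SMA replicate 2. The 10 markers summed to 215, 521 and 189 FPKM across the controls and to 222, 100 and 58.7 FPKM across the SMA libraries. Fn1, a matrix gene that the liver also expresses, had the highest mean of the list through control replicate 2, at 25.7, 318 and 20.3 FPKM in control and 21.4, 11.9 and 11.3 FPKM in SMA. Col3a1, a collagen of fibroblasts, was listed at 50.2, 62.0 and 38.8 FPKM in control and at 53.2, 20.2 and 3.10 FPKM in SMA, and Col1a2 at 55.8, 45.8 and 59.7 FPKM in control and at 67.3, 34.2 and 22.1 FPKM in SMA. Col1a2, unlike Igf2, was not raised in control replicate 2. Igf2 in SMA replicate 2 (40.4 FPKM) was near that in control replicate 3 (41.9 FPKM), so SMA replicate 3 alone stood below the rest. Whether it held less Igf2 per cell or fewer of the cells that express it cannot be told apart in bulk tissue, and the part of the fibroblast markers was not tested. Of the 10 fibroblast markers, 1 was lower over 6 libraries at an unadjusted p under 0.05 (Lum, log2 fold change -1.03, adjusted p = 0.683 from limma), beside 2.39% of all genes tested. In the fit without control replicate 2, 2 were lower, beside 5.2% of all genes tested: Fn1 (log2 fold change -0.64, adjusted p = 0.443 from limma) and Aldh1a2 (log2 fold change -0.75, adjusted p = 0.308 from limma). Lum, also named after its values were seen, had a log2 fold change of -0.72 without control replicate 2. Over 6 libraries those of Fn1 and Aldh1a2 were -1.89 and -0.38. Of the 10, 9 had a log2 fold change below 0 over 6 libraries (median -1.06), and all 10 did without control replicate 2 (median -0.69), beside 42.0% and 49.6% of all genes tested.

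The genes whose centred log2(FPKM + 1) profile over the 6 libraries was nearest to that of Igf2 were Abca8a, Cp and Col18a1, at root mean square differences of 0.15, 0.37 and 0.38. Abca8a was listed at 2.09, 26.0 and 1.20 FPKM across the controls and at 2.22, 0.772 and 0.0804 FPKM across the SMA libraries, so it too was highest in control replicate 2 and lowest in SMA replicate 3. For Igf1 the nearest were Psme2, St3gal4 and Nipsnap1, at 0.04, 0.05 and 0.06. Psme2, a proteasome activator subunit, was listed at 26.0 FPKM in control replicate 2 and between 11.9 and 13.6 FPKM in the others.

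Some annotated genes share these loci. The antisense transcript Igf2os overlaps Igf2 over 7124 bases and was listed between 0.0674 and 0.577 FPKM. A further protein-coding annotation, Gm49394, overlaps Igf2 on the same strand over 16048 bases and was not in the files. The libraries were made strand-specific, but whether the counting used the strand is not given in the sources used here, so reads of overlapping genes may have been split between them.

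The ratio of Igf2 to Igf1 within a library does not depend on how the library is scaled. It was 7.71, 31.2 and 4.47 across the controls and 7.48, 4.11 and 1.74 across the SMA libraries. Igf2 thus exceeded Igf1 in all 6 libraries, and the groups overlapped. The mean log2 ratio differed by -1.44 (SMA minus control, exact two-sided permutation p = 0.2) and by -0.64 without control replicate 2 (exact two-sided permutation p = 0.4). Without SMA replicate 3 the difference was -0.89. It was -1.94 without SMA replicate 1 and -2.04 without control replicate 3.

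For the receptors, Igf1r (chromosome 7, 67952827 to 68233668, plus strand), which carries the growth signal into the cell, was listed at 18.7, 16.2 and 21.3 FPKM across the controls and at 20.8, 21.7 and 17.9 FPKM across the SMA libraries. Control replicate 2, high for the ligands, was the lowest library for their receptor, at 0.747 times the highest of the other 5. The groups overlapped, with a log2 fold change of 0.10 (95% confidence interval -0.21 to 0.42, adjusted p = 0.758 from limma) and of 0.01 (-0.22 to 0.24, adjusted p = 0.979 from limma) without that library. Hepatocytes of the adult are known for very little Igf1r.

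Igf2r (chromosome 17, 12682406 to 12769664, minus strand), which removes IGF2 from the cell surface, was listed at 8.59, 12.2 and 9.66 FPKM across the controls and at 9.53, 8.89 and 8.86 FPKM across the SMA libraries. Outside control replicate 2 it was the steadiest of the 10 genes in FPKM among those above 1 FPKM, with the highest library 1.12 times the lowest. The log2 fold change was -0.13 (95% confidence interval -0.46 to 0.20, adjusted p = 0.716 from limma) over 6 libraries, and -0.00 (-0.22 to 0.22, adjusted p = 0.993 from limma) without control replicate 2. Airn, the antisense RNA of the imprinted Igf2r locus, overlaps it over 28354 bases and was listed at 3.58, 6.77 and 8.38 FPKM across the controls and at 6.53, 4.25 and 5.82 FPKM across the SMA libraries.

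Among the binding proteins, Igfals (chromosome 17, 24865997 to 24882010, plus strand) was listed at 0, 12.9 and 0 FPKM across the controls and at 0, 0.0452 and 0.0453 FPKM across the SMA libraries. The acid-labile subunit transcript was thus above 0.1 FPKM in control replicate 2 alone, and it was absent from control replicates 1 and 3 and SMA replicate 1. It passed the filter on low values through that library and was not tested without it. The log2 fold change over 6 libraries was -1.22 (limma, SE 0.994, adjusted p = 0.683), a value set by 1 library. The nearest profiles were those of Gcgr, Cyp2a22 and Agxt2, at root mean square differences of 0.03, 0.03 and 0.04. Gcgr, the glucagon receptor of hepatocytes, was listed at 12.8 FPKM in control replicate 2 and was absent from the other 5.

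Igfbp1 (chromosome 11, 7197782 to 7202546, plus strand), a hepatic binding protein under insulin control, was listed at 0.122, 277 and 0.451 FPKM across the controls and at 0.503, 1.35 and 0.747 FPKM across the SMA libraries. Control replicate 2 was 204 times the next library. Over 6 libraries the log2 fold change was -2.06 (95% confidence interval -6.88 to 2.75, adjusted p = 0.702 from limma), and without control replicate 2 it turned to 0.52 (-0.01 to 1.06, adjusted p = 0.487 from limma), with the 3 SMA libraries above both control libraries (exact two-sided permutation p = 0.2). All 5 of these values lay at or under 1.35 FPKM. The hepatocyte markers were present at low levels in the same 5 libraries. SMA replicate 2 was the highest of them for both Igfbp1 (1.35 FPKM) and the summed markers (138 FPKM). The order was otherwise not shared: control replicate 1 had the next highest sum (108 FPKM) and the lowest Igfbp1 (0.122 FPKM). SMA replicate 1 had the lowest sum (66.2 FPKM) and not the lowest Igfbp1. The nearest profiles over 6 libraries were those of the fibrinogen chain gene Fgb and the antitrypsin genes Serpina1a and Serpina1b, at root mean square differences of 0.22, 0.23 and 0.25. Fgb was listed at 0.881, 302.4 and 0.644 FPKM across the controls and at 0.660, 1.71 and 1.32 FPKM across the SMA libraries. All 3 genes are on the hepatocyte list, and reads of the Serpina1 paralogs can be split between them.

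Igfbp2 (chromosome 1, 72824503 to 72852474, plus strand) is abundant in fetal tissue and in glia. It was listed at 66.2, 499 and 58.5 FPKM across the controls and at 67.7, 52.8 and 53.4 FPKM across the SMA libraries, and control replicate 2 held 7.36 times the next library. The log2 fold change was -1.10 (limma, SE 0.781, adjusted p = 0.683) over 6 libraries and -0.11 (limma, SE 0.115, adjusted p = 0.772) without that library, with overlapping groups both times. The nearest profiles were those of Acnat1, B2m and Zc3hav1, at 0.09, 0.09 and 0.10. Acnat1 was listed at 8.98 FPKM in control replicate 2 and at or under 0.182 FPKM in the others, where the scale hides most differences. B2m, the light chain of class I antigen presentation, was listed at 116 FPKM in control replicate 2 and between 10.2 and 13.8 FPKM in the others.

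Igfbp3 (chromosome 11, 7206086 to 7213923, minus strand), the main carrier of IGF in blood, was listed at 10.9, 13.0 and 8.52 FPKM across the controls and at 11.1, 10.5 and 10.2 FPKM across the SMA libraries. Igfbp5 (chromosome 1, 72857932 to 72874884, minus strand), a binding protein of matrix and neural tissue, was listed at 74.0, 40.4 and 43.6 FPKM across the controls and at 57.3, 53.0 and 46.4 FPKM across the SMA libraries. The groups overlapped for both genes, with log2 fold changes of -0.01 for Igfbp3 (95% confidence interval -0.37 to 0.35, adjusted p = 0.984 from limma) and 0.04 for Igfbp5 (-0.52 to 0.59, adjusted p = 0.958 from limma). Neither direction held under every scaling: Igfbp3 turned to 0.01 with libraries rescaled to the same total, and Igfbp5 to -0.00 with quantile normalization and -0.02 with median ratio scaling. Without control replicate 2 the values were 0.12 for Igfbp3 and -0.12 for Igfbp5.

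These genes stand in the genome as pairs. Igfbp1 and Igfbp3 lie 3539 bases apart on chromosome 11, and Igfbp2 and Igfbp5 lie 5457 bases apart on chromosome 1, each pair with its 3′ ends facing. In control replicate 2, Igfbp1 was 204 times the highest of the other libraries and its neighbour Igfbp3 1.17 times. In the other pair, Igfbp2 was 7.36 times the highest of the other libraries, while Igfbp5 was the lowest library at 0.546 times the highest. The members of a pair thus differed in that library.

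Igfbp4 (chromosome 11, 99041244 to 99054392, plus strand), a binding protein that mostly restrains IGF action and is cleaved by the protease PAPP-A, was the 1 gene of the 10 with groups that did not overlap over all 6 libraries, where 6.67% of all genes tested had SMA wholly below control and 10.3% wholly above. It was listed at 19.7, 84.9 and 21.1 FPKM across the controls and at 16.2, 13.7 and 12.2 FPKM across the SMA libraries. The mean was 41.9 ± 37.3 FPKM in control and 14.1 ± 2.03 FPKM in SMA (SD, n = 3 in each), and 20.4 FPKM in control without replicate 2. Every SMA library lay below every control library, with and without control replicate 2 (exact two-sided permutation p = 0.1 both times, the smallest possible). The log2 fold change was -1.19 (95% confidence interval -2.46 to 0.08, unadjusted p = 0.0629, adjusted p = 0.683 from limma) over 6 libraries. Without control replicate 2 it was -0.52 (-0.79 to -0.25, unadjusted p = 0.00241, adjusted p = 0.291 from limma), which does not pass an adjusted threshold of 0.05. Over the 15 alternatives of processing, the log2 fold change ranged from -1.54 to -0.52 and the adjusted p from limma from 0.285 to 0.907.

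Endothelial markers lay beside Igfbp4. The 7 markers summed to 52.8, 74.9 and 61.4 FPKM across the controls and to 48.2, 39.9 and 43.6 FPKM across the SMA libraries, so that each SMA sum was below each control sum. That separation rests on Cldn5: without it the other 6 markers summed to 27.0, 54.5 and 36.4 FPKM across the controls and to 31.8, 24.2 and 29.1 FPKM across the SMA libraries, which overlap. Cldn5, the tight junction gene of brain and cord endothelium and the most abundant of the list, was listed at 25.8, 20.4 and 25.0 FPKM in control and at 16.4, 15.7 and 14.4 FPKM in SMA. In limma it differed by -0.58 on the log2 scale (adjusted p = 0.683) over 6 libraries and by -0.68 (adjusted p = 0.108) without control replicate 2. Egfl7 and Flt1, the next in abundance, overlapped between groups, at 7.86, 23.6 and 16.0 FPKM in control and 11.0, 9.62 and 11.96 FPKM in SMA for Egfl7, and at 5.11, 5.69 and 5.65 FPKM in control and 6.17, 3.90 and 5.06 FPKM in SMA for Flt1. Of the 7, 2 were lower over 6 libraries at an unadjusted p under 0.05 in limma, Cldn5 and Pecam1, beside 2.39% of all genes tested. Pecam1, named after its values were seen, did not overlap between groups, at 5.19, 7.06 and 5.26 FPKM across the controls and 4.53, 2.92 and 3.64 FPKM across the SMA libraries. Of the 7, 6 had a log2 fold change below 0 over 6 libraries, beside 42.0% of all genes tested. In the fit without control replicate 2, 5 did, beside 49.6%. The other 2 were above 0 without control replicate 2, both named after their values were seen. Slco1a4, a transporter of brain endothelium, had a log2 fold change of 0.39 (unadjusted p = 0.042, adjusted p = 0.456 from limma) and Ly6c1 of 0.08. Over 6 libraries Slco1a4 turned to -0.23 and Ly6c1 was at 0.03. Rgs5, a pericyte gene held on the stellate list, was listed at 17.9, 17.2 and 24.6 FPKM in control and at 15.9, 13.6 and 14.9 FPKM in SMA. The part of endothelial or pericyte RNA in the Igfbp4 values was not tested. The nearest profiles to Igfbp4 were those of Tubb1, Steap3 and Dhrs4, at root mean square differences of 0.11, 0.12 and 0.12. Tubb1 was listed at 4.41 FPKM in control replicate 2 and at or under 0.470 FPKM in the others. At such levels the log2(FPKM + 1) scale hides most of the differences between libraries. Steap3, a ferrireductase of red cell precursors and liver, was listed at 1.54, 9.75 and 1.84 FPKM across the controls and at 1.45, 1.06 and 1.03 FPKM across the SMA libraries.

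**Figure D2:**
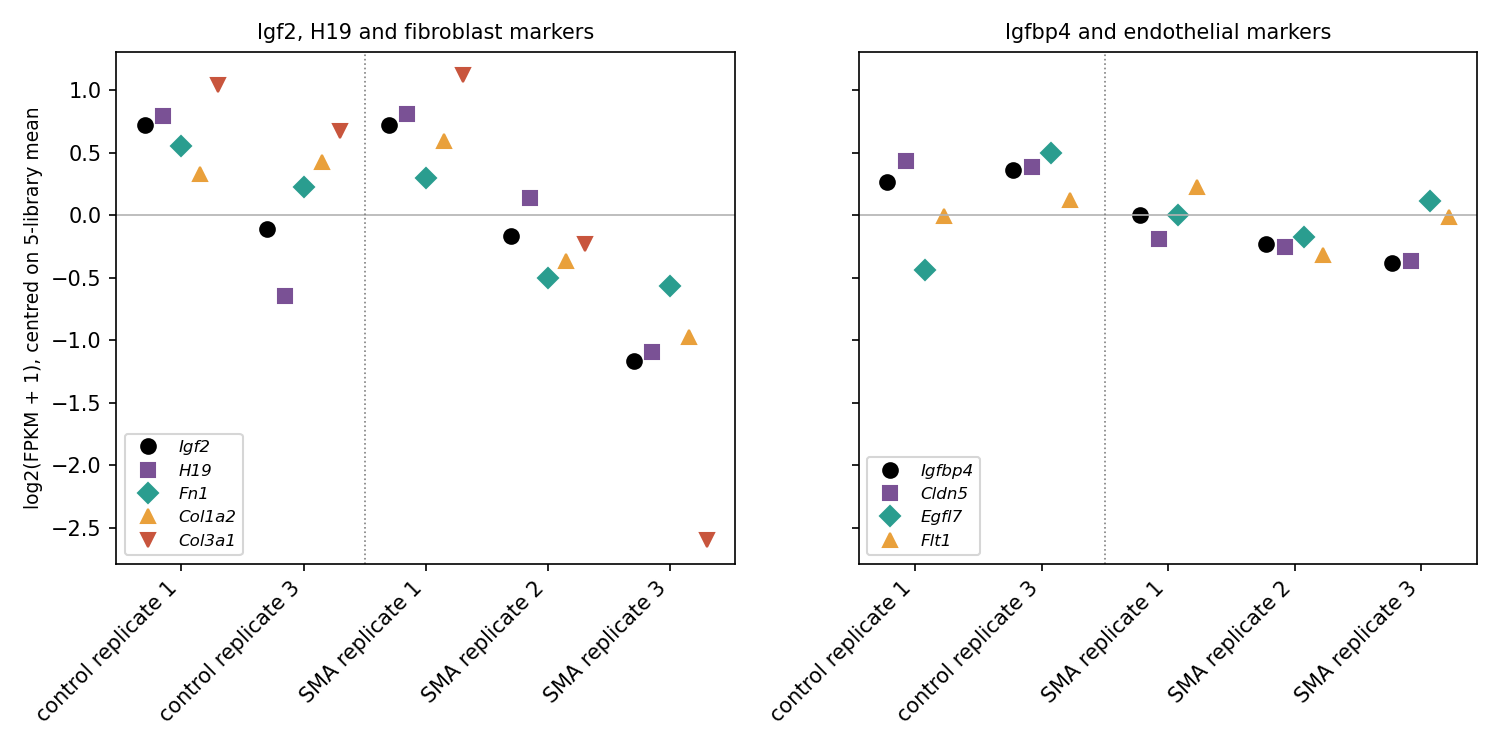
Left, Igf2 with H19 and the 3 fibroblast markers of highest mean over all 6 libraries, of which Fn1 is one only through control replicate 2 (318 FPKM); right, Igfbp4 with the 3 endothelial markers chosen the same way, in the 5 libraries other than control replicate 2, as log2(FPKM + 1) centred on the mean of each gene over those 5. On the left all 5 genes lie lowest in SMA replicate 3 (Igf2 19.6 FPKM, Col3a1 3.10 FPKM); on the right Igfbp4 and Cldn5 lie lower in all 3 SMA libraries than in both controls, and Egfl7 and Flt1 do not.

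Counted together over 6 libraries, 0 of the 10 genes passed an adjusted p under 0.05 from limma, as did 0 of all 17088 genes tested (0%). At an unadjusted p under 0.05, 0 of the 10 were lower and 0 higher in SMA, beside 409 lower (2.39%) and 581 higher (3.4%) among the 17088. Of the 10, 1 (Igfbp4) had every SMA library below every control library, as did 6.67% of all genes tested, and 0 had every SMA library above, as did 10.3%. The log2 fold change was below 0 for 8 of the 10, with a median of -0.67, and for 42.0% of all genes tested, with a median of 0.04. Among the 8 were Igfals, which passed the filter only through control replicate 2, and Igf1, Igfbp1 and Igfbp3, which turned without it. The genes were named with the profile of that library known, so this count tests nothing. Leaving out single libraries moved the background counts by over 1.5 times, to 712 lower without control replicate 3, to 142 and 125 lower without SMA replicates 2 and 3, to 1032 and 1040 higher without control replicates 1 and 3, and to 238, 255 and 214 higher without SMA replicates 1, 2 and 3. The counts without control replicate 2 follow.

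Without control replicate 2, 9 of the 10 genes were tested among 16574. At an adjusted p under 0.05 from limma, 0 of the 9 and 2 of all genes (0.0121%) passed, and these 2 were the small RNAs Snora74a and Rpph1, named after their values were seen. At an unadjusted p under 0.05, 1 of the 9 (Igfbp4) was lower, beside 862 of all genes tested (5.2%), and 0 were higher, beside 874 (5.27%). Groups did not overlap for Igfbp4, with SMA lower, beside 13.9% of all genes tested, and for Igf1 and Igfbp1, with SMA higher, beside 14.2%. The median log2 fold change of the 9 was -0.00, and 5 of them were below 0, beside 49.6% of all genes tested and a median of 0.00. With 9 genes, shares this close to those of all genes are no result about the IGF axis. Over all 15 alternatives the adjusted p of the 10 genes ranged from 0.285 to 0.998 in limma.

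**Figure D3:**
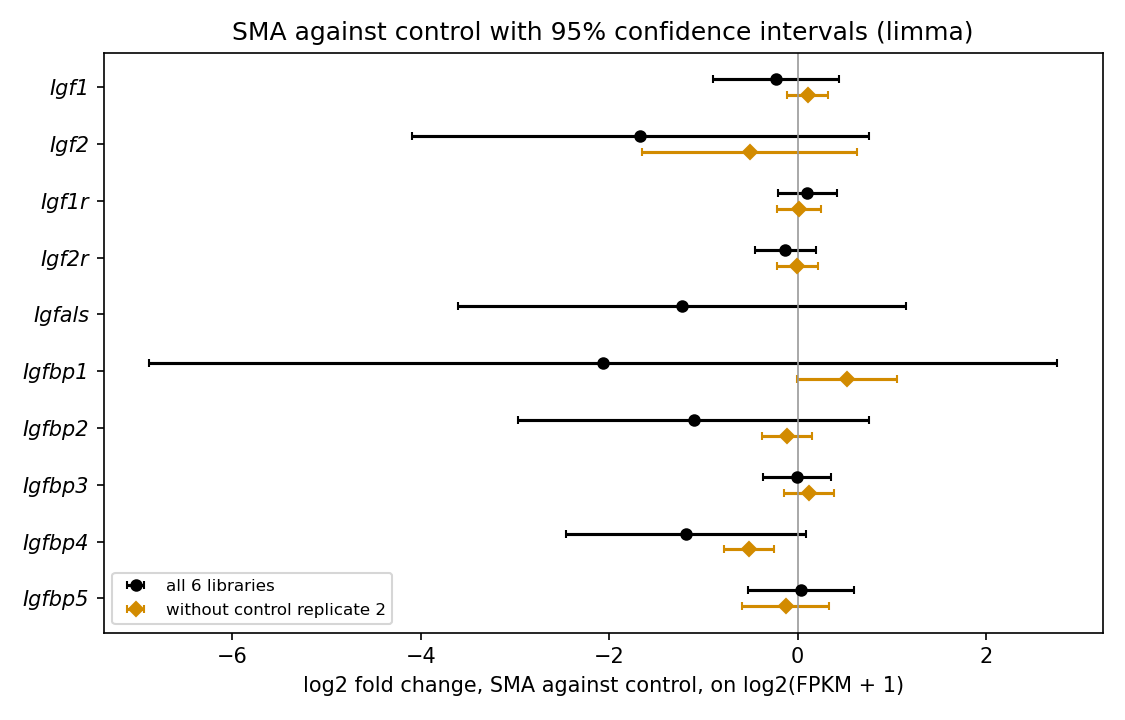
Log2 fold change of each IGF axis gene, SMA against control, on log2(FPKM + 1), with 95% confidence intervals from limma; black circles are all 6 libraries and orange diamonds the 5 without control replicate 2, where Igfals was not tested. The interval spans 0 for all 10 genes over 6 libraries and for 8 of 9 without control replicate 2, the exception being Igfbp4 (-0.79 to -0.25), and the point of Igf1, Igfbp1, Igfbp3 and Igfbp5 changes side.

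The order of the levels could be read from the 5 libraries other than control replicate 2. Igfbp2 came first, at 59.7 ± 6.98 FPKM (SD, n = 5), then Igfbp5 at 54.9 ± 11.99 FPKM and Igf2 at 50.5 ± 24.3 FPKM, and these 3 overlapped in range. Igf1r followed at 20.1 ± 1.69 FPKM and Igfbp4 at 16.6 ± 3.80 FPKM, where Igf1r overlapped with both Igf2 and Igfbp4. Igfbp3 (10.2 ± 1.01 FPKM), Igf1 (10.1 ± 0.731 FPKM) and Igf2r (9.11 ± 0.464 FPKM) formed a lower group whose ranges overlapped and lay under that of Igfbp4. Igfbp1 at 0.635 ± 0.459 FPKM and Igfals, between 0 and 0.0453 FPKM, were set apart below. In control replicate 2 the order was different, with Igf2 at place 1, Igfbp2 at 2, Igfbp1 at 3 (place 9 in the other 5) and Igfbp4 at 4. The binding proteins Igfbp1 to Igfbp5 together exceeded the ligands in every library: the ratio of their summed FPKM to that of Igf1 and Igf2 was 2.01, 1.39 and 2.58 across the controls and 1.79, 2.62 and 3.97 across the SMA libraries. The groups overlapped, with a difference in mean log2 ratio of 0.46 (SMA minus control, exact two-sided permutation p = 0.4) and of 0.22 without control replicate 2 (exact two-sided permutation p = 0.7). It was 0.17 without SMA replicate 3 and 0.74 without SMA replicate 1.

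Of 43 other genes of the axis, in 6 lists by role, 42 were in the files and 36 were tested. At an unadjusted p under 0.05 in limma, 0 were lower and 0 were higher, both over 6 libraries and without control replicate 2, and 18 of the 36 were below 0 over 6 libraries, with a median log2 fold change of -0.00, beside 42.0% of all genes tested. Leaving out control replicate 1 gave 1 lower (Pik3ca) and 3 higher (Htra1, Irs1 and Pik3r1), beside 3.35% lower and 6.03% higher among all genes tested in that fit. Leaving out control replicate 3 gave 3 lower (Akt2, Stat5a and Igf2bp2) and 1 higher (Pik3r2), beside 4.16% lower and 6.07% higher. Counts this small are no result about the pathway genes. Those outside the lists of at most 5 genes were named after their values were seen.

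Among the other binding proteins, Igfbp7 was listed at 6.09, 14.7 and 7.15 FPKM across the controls and at 7.63, 7.21 and 7.23 FPKM across the SMA libraries. Igfbpl1, a gene of immature neurons, was listed at 1.03, 1.11 and 1.10 FPKM in control and at 1.44, 1.43 and 2.04 FPKM in SMA, so its groups did not overlap (log2 fold change 0.33, adjusted p = 0.683 from limma). Of the 36 genes tested, 2 had SMA wholly above control over 6 libraries (Igfbpl1 and Mtor), beside 10.3% of all genes tested, and 1 wholly below (Pik3ca), beside 6.67%. Mtor was named after its values were seen. Igfbp6 stayed at or under 0.698 FPKM in every library. Insr, the insulin receptor, ranged from 19.8 to 21.1 FPKM in the 5 other libraries and reached 28.1 FPKM in control replicate 2, Ins2 was absent from 5 libraries and listed at 0.189 FPKM in SMA replicate 3, and Insrr lay at or under 0.219 FPKM. Of the 5 proteases of binding proteins and their inhibitors, 0 were highest in control replicate 2. Htra1 led them, at 21.8, 11.8 and 19.3 FPKM across the controls and 20.8, 27.1 and 27.1 FPKM across the SMA libraries (log2 fold change 0.51, adjusted p = 0.683 from limma), with overlapping groups. Its log2 fold change was 0.26 without control replicate 2 and 0.68 without control replicate 1. Pappa, the protease of Igfbp4, was listed at 3.48, 2.45 and 5.70 FPKM in control and 3.54, 4.14 and 3.95 FPKM in SMA. Pappa2 ranged from 0.526 to 1.47 FPKM, and the inhibitors Stc1 and Stc2 from 1.72 to 3.24 FPKM and from 0.292 to 0.699 FPKM.

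Of the 19 receptor adaptors and kinases, Gsk3b and Akt1 were among the most abundant, and both were lowest in control replicate 2. Akt1 was listed at 62.9, 49.7 and 61.1 FPKM across the controls and at 65.4, 61.2 and 61.7 FPKM across the SMA libraries. The 19 genes summed to 500.4, 453 and 490.2 FPKM in control and to 496, 495 and 494 FPKM in SMA. In the growth hormone axis, Ghr, the growth hormone receptor, was listed at 9.35, 35.0 and 8.09 FPKM across the controls and at 9.05, 9.79 and 7.62 FPKM across the SMA libraries, or 3.87 times the median of the other 5 in control replicate 2. Jak2, the kinase bound to it, was between 10.8 and 12.4 FPKM in all 6 libraries, and Socs2, a target of growth hormone, was 17.3 FPKM in control replicate 2 and between 9.72 and 13.0 FPKM in the others. Of the mRNA-binding proteins named for Igf2, Igf2bp3 was listed at 7.63 FPKM in control replicate 2 and between 1.61 and 2.53 FPKM in the others, Igf2bp2 between 3.46 and 6.93 FPKM, and Igf2bp1 at or under 0.752 FPKM. In all, 5 of the 36 genes tested were over 2-fold higher in control replicate 2 than the median of the others: H19, Igf2bp3, Ghr, Grb10 (63.6 FPKM there) and Shc1 (13.9 FPKM there), the last pair named after their values were seen. The share over all 17088 genes tested was 8.3%, and a count of 5 is no result about these genes.

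**Figure D4:**
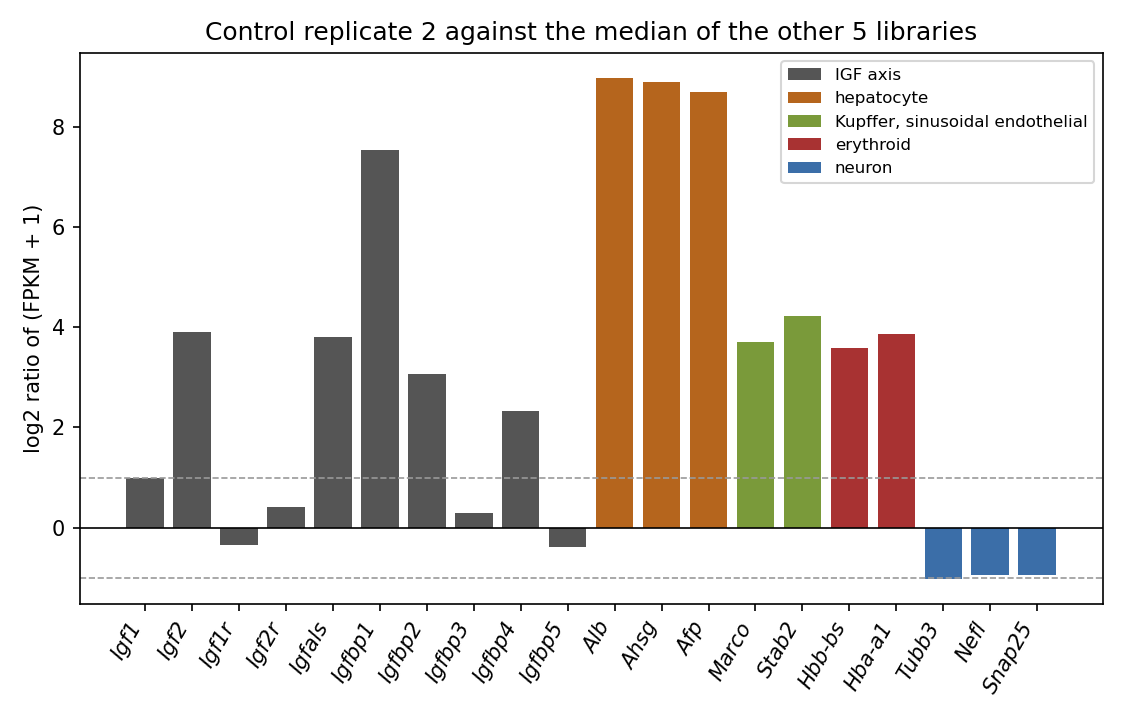
Log2 ratio of FPKM + 1 in control replicate 2 to the median of the other 5 libraries for the IGF axis genes (grey) and for abundant markers of hepatocytes, Kupffer and liver sinusoidal endothelial cells, red cells and neurons; dashed lines mark 2-fold. Igfbp1 (7.53) lies closest to the hepatocyte markers (Alb 8.97, Ahsg 8.88, Afp 8.69), Igf2 (3.90), Igfals (3.80), Igfbp2 (3.07) and Igfbp4 (2.32) lie between, and Igf1r (-0.34) and Igfbp5 (-0.38) lie below 0 with the neuron markers.

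The remaining marker lists bear on the cord itself. The 14 glia markers summed to 1244, 1121 and 1621 FPKM across the controls and to 1067, 1233 and 1199 FPKM across the SMA libraries, led by Mbp, so that glial RNA was present in every library. The choroid plexus list had 5 of its 6 genes in the files and summed to 6.23, 47.0 and 4.04 FPKM in control and 4.71, 3.79 and 3.56 FPKM in SMA. Most of the value in control replicate 2 was Aqp1 (45.3 FPKM), which red cells also express, while Kl and Folr1 were not raised there. The 8 skeletal muscle markers, led by Acta1, Ckm and Mylpf, summed to between 1.28 and 7.51 FPKM, and the 6 cartilage and bone markers, led by Col2a1, Acan and Col9a1, to between 3.08 and 5.55 FPKM. Muscle and skeletal sums were thus small beside the neuron sums of 586 to 1161 FPKM.

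At an unadjusted p under 0.05 in limma, over 6 libraries, the calls in the 12 marker lists were Rgs5, Lum, Cldn5 and Pecam1, each lower in SMA, and 0 markers were higher. Without control replicate 2, the calls included Serpinc1 of the hepatocyte list, Slc6a5 of the neuron list, Aqp4, Mag and Pdgfra of the glia list, Fn1, Aldh1a2, Rgs5, Cldn5 and Pecam1, lower in SMA, and Rbfox3, Slc32a1 and the endothelial Slco1a4, higher in SMA. Among all genes tested, 2.39% were lower and 3.4% higher over 6 libraries. Without control replicate 2 these shares were 5.2% and 5.27%, and calls this few in a list are no result about a cell type. Those not among the 3 most abundant of a list were named after their values were seen, and 0 markers passed an adjusted p under 0.05 in either fit.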

How the data were processed

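Bulk RNA libraries of spinal cord, 3 control and 3 SMA, were compared. The authors aligned reads with HISAT2 to mm10 and deposited gene-level FPKM values from Cufflinks, as their processing notes name these tools, with no versions given. A gene absent from a file was taken as 0 FPKM. Genes whose mean reached 0.5 FPKM were tested on log2(FPKM + 1) with limma 3.58.1 (lmFit, eBayes with trend) in R 4.3.3, two-sided, with Benjamini-Hochberg adjustment over all genes tested, after a test on simulated data. The simulated data took their means and spread from the libraries other than control replicate 2. That test therefore does not check a fit with an outlying library. Single values were compared by exact two-sided permutation tests in Python 3.11.15. The study's methods used a negative binomial test on read counts, which FPKM values do not allow. Gene coordinates came from GENCODE (mouse GRCm38), which held 99.3% of the gene identifiers, and promoter sequences from RefSeq (GRCm38.p6). The 10 genes, the pathway lists (other binding proteins, insulin and its receptors, proteases and inhibitors, adaptors and kinases, growth hormone axis, Igf2 locus and Igf2 mRNA-binding proteins) and the marker lists (hepatocyte, Kupffer, liver sinusoidal endothelial, stellate, erythroid, neuron, glia, fibroblast, endothelial, choroid plexus, muscle, cartilage and bone) were chosen with earlier results of these data known. Lists of at most 5 pathway genes were named in full, longer lists by the 3 highest in mean FPKM and any with an unadjusted p under 0.05, marker lists by the 3 highest, and like profiles by the 3 smallest root mean square differences for each gene whose highest library was over 2-fold its lowest. Alternatives changed the pseudocount, the filter, the scaling, the library weights, the replicate block and the libraries included.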

Additional observations from a re-analysis of the deposited data

How the results depend on the processing

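None of the 10 genes passed an adjusted p under 0.05 from limma under any alternative. Igf2, Igf1r, Igf2r, Igfbp2 and Igfbp4 held their direction in all 15 alternatives, and Igfals in the 13 that tested it; it fell below the filter in both that left out control replicate 2. The cause of the changes below was not tested. With library weights, the log2 fold change was 0.0515 for Igf1, 0.15 for Igfbp1, 0.0945 for Igfbp3 and -0.11 for Igfbp5, while the genes that held their direction moved toward 0, to -0.76 for Igf2, 0.0265 for Igf1r, -0.0278 for Igf2r, -0.154 for Igfals, -0.29 for Igfbp2 and -0.64 for Igfbp4. With libraries rescaled to the same total, that of Igfbp3 was 0.0129. For Igfbp5 it was -0.00 (-0.00436) with quantile normalization and -0.0221 with median ratio scaling. Without control replicate 2 and with median ratio scaling together, it was 0.10 for Igf1, 0.52 for Igfbp1, 0.12 for Igfbp3 and -0.13 for Igfbp5. Leaving out each library in turn gave ranges of -0.42 to 0.11 for Igf1, -3.45 to 0.52 for Igfbp1, -0.16 to 0.12 for Igfbp3, -0.12 to 0.30 for Igfbp5, -2.46 to -0.51 for Igf2 and -1.54 to -0.52 for Igfbp4.

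Genes with an adjusted p under 0.05 from limma numbered 0 over 6 libraries, 0 to 2 when a library was left out, and 1 without control replicate 2 and with median ratio scaling. At an unadjusted p under 0.05, 409 were lower and 581 higher. The lower count was 619 with library weights, 881 without control replicate 2 and with median ratio scaling, and 125 to 862 when a library was left out. The higher count was 882 with no filter, 338 with the same total and 214 to 1040 when a library was left out. With a fold over 2 as well, 17 were lower and 12 higher; the lower count was 125 with a pseudocount of 0.1, 7 with library weights, 7 without control replicate 2 and with median ratio scaling, and 4 to 131 when a library was left out; the higher count was 64 with a pseudocount of 0.1 and 12 to 28 when a library was left out. The lower share of calls was 41.3% over 6 libraries, 53.3% with the same total and 50.5% when median ratio scaling was used alone. The highest share among the alternatives was 56.25%, without SMA replicate 1, and the lowest was 34.5%, with quantile normalization. Other pathway genes numbered 1 lower with median ratio scaling and 1 with library weights (Pik3ca both times), 1 with that scaling and control replicate 2 left out (Pik3cb), and 1 higher with quantile normalization (Igfbpl1); leaving out a library gave 0 to 3 lower and 0 to 3 higher.

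Deviations from the group mean were little correlated between same-numbered libraries (correlations -0.037, 0.0161 and 0.0766). The control mean included control replicate 2, which stood apart, so these correlations cannot show whether the number pairs libraries. With the replicate block the higher count was 356, the lower count with a fold over 2 was 35, and 1 other pathway gene (Igf2bp2) was lower. Over every pair of an SMA and a control library, these deviations from the group mean correlated at no more than 0.0766.

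Relative depth differed by at most 1.16 times, and the absolute depth behind an FPKM value was not known, so no counting error is given for values near 0.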
